A study of Mus musculus with 18 samples.

Results

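The gene *Eomes* and 7 other genes for transcription factors of effector CD8+ T cells (*Tbx21*, *Id2*, *Prdm1*, *Zeb2*, *Bhlhe40*, *Maf* and *Gata3*) were followed here through chronic peptide stimulation and ibrutinib treatment. They were chosen by name, as factors known for effector and memory fates, with earlier results of these data known. They are 8 of the 45706 genes in each deposited table. All 8 passed the filter on low counts and are among the 12255 genes tested. The cells were OT-I cells, CD8+ T cells of transgenic mice whose T cell receptor recognizes the OVA(257-264) peptide of ovalbumin, cultured with IL-7 and IL-15. Repeat peptide cells were given this peptide on each of the first days and stayed with it afterwards, and single peptide cells met it only at the start. From day 5 to day 8 the cells of both arms received either 1 µM ibrutinib, an irreversible inhibitor of the kinase BTK and of related kinases, or its solvent DMSO, and RNA was taken on day 8. The 18 RNA-seq libraries comprise 4 of repeat peptide cells with DMSO, 5 of repeat peptide cells with ibrutinib, 5 of single peptide cells with DMSO and 4 of single peptide cells with ibrutinib. Replicates are named by experiment, lettered A to F from the labels' genotype entry. All 4 groups are present in A, B, C and D, whereas E contributes 1 library (repeat peptide with ibrutinib) and F another (single peptide with DMSO). By strain every library is labelled wild-type OT-1, while a *btk* knockout is named in the genotype entry of B, C, D and E. In A this entry begins with INHB and in F with PKC. Since the study describes the RNA-seq without *btk* deficient cells, the entry was taken for an experiment name. Nothing states that replicates came from separate mice, so p-values measure the spread between these samples, which may in part be technical.

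The 8 factors act at different points of CD8+ T cell differentiation. Eomes and T-bet (encoded by *Tbx21*) are T-box factors that bind related DNA sites in genes for cytotoxicity and interferon gamma, and their balance is known to mark T cell states in chronic infection. Id2 binds E proteins and keeps them from DNA, and Zeb2 is a zinc finger repressor that works with T-bet in terminal effector cells. Blimp-1 (encoded by *Prdm1*) and Bhlhe40 are factors induced through the T cell receptor and cytokines, and Blimp-1 represses memory genes. GATA3 and c-Maf are best known from helper T cells and are also expressed in CD8+ T cells, where both have been tied to dysfunction.

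The region just upstream of the start site is shown for the related factors *Eomes* and *Tbx21*, whose values moved apart, and for *Prdm1*, one of the genes called under ibrutinib. Each line gives the 250 bases before the RefSeq start on GRCm38.p6, on the strand of the gene, with matches to the motifs searched in capitals. The *Eomes* window is at chr9:118477939-118478188 on the plus strand, the *Tbx21* window at chr11:97115332-97115581 on the minus strand and the *Prdm1* window at chr10:44458749-44458998 on the minus strand. None of these windows overlapped a GENCODE exon, and the *Prdm1* window lies within the annotated span of the gene, between exons of longer transcripts.
Eomes: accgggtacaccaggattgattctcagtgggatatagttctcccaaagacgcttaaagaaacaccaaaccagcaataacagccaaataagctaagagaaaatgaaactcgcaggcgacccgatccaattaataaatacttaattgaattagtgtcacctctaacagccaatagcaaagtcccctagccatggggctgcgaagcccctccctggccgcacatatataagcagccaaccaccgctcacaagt
Tbx21: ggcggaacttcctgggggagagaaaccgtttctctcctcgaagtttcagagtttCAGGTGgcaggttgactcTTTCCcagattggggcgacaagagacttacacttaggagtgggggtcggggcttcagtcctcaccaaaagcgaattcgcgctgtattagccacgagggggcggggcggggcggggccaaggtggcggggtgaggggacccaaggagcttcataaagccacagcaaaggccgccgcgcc
Prdm1: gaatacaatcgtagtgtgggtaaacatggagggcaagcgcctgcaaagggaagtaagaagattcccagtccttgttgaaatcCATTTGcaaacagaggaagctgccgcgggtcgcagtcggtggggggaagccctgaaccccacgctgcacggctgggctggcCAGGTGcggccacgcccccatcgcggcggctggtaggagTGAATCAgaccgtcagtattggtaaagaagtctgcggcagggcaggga
The 5 motifs were searched on both strands as letters, where N is any base. AP-1 (TGANTCA) occurred in 6.75% of the 32851 windows of this length in the table, the NFAT core (GGAAA) in 55.6%, the E-box (CANNTG) in 66.2%, a GATA site (AGATAA) in 9.99% and a T-box site (AGGTGTGA) in 1.12%. The *Prdm1* window held an AP-1 match starting 48 bases before the start site and E-boxes starting 168 and 87 bases before it. The *Tbx21* window held an E-box starting 196 bases and an NFAT core starting 178 bases before the start. In the *Eomes* window none of the 5 was found. Among the windows not shown, one of *Zeb2*, which was not called under ibrutinib, held AP-1 matches starting 189 and 132 bases before its start. The other *Zeb2* windows and that of *Gata3* held NFAT cores only, and that of *Id2* an E-box only. A match describes the letters only. *Bhlhe40* and *Maf* are without an entry in this table.

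The libraries held 23445922 to 51995372 expected counts (median 27420966), and 7 of the 8 genes had at least 16 counts in every library. The exception was *Maf*, with as few as 5 counts in repeat peptide DMSO libraries. The 5 markers of CD8+ T cells (*Cd3e*, *Cd3d*, *Cd3g*, *Cd8a*, *Cd8b1*) together reached 2258 to 3152 TPM, the level relative to all transcripts and corrected for gene length, over the 18 libraries. Of 5 B cell markers only *Cd79b* reached 1 TPM, and the list summed to 1.06 to 7.10 TPM. The 6 myeloid markers summed to 0.12 to 6.34 TPM and *Csf1r* stayed at or under 0.03 TPM. *Lyz2* reached 5.92 (DMSO) and 4.45 TPM (ibrutinib) in the single peptide libraries of experiment A, and at most 1.94 TPM elsewhere. *Cd14* reached 2.92 TPM in repeat peptide DMSO cells. The 4 CD4+ T cell markers summed to 2.08 to 21.4 TPM with *Cd4* itself at or under 0.17 TPM. The others, *Zbtb7b*, *Cd40lg* and *Foxp3*, reached 1 TPM in some libraries. The 4 NK cell markers summed to 14.2 to 56.4 TPM in repeat and to 3.25 to 10.5 TPM in single peptide cells. This difference came from *Kit* and *Klrb1c*, while *Ncr1*, which defines NK cells, was at or under 0.42 TPM in repeat peptide cells, with a median of 0. In single peptide cells *Ncr1* had medians of 0.11 (DMSO) and 0.125 TPM (ibrutinib). With DMSO it reached 1.16 TPM there, and *Klra8* reached 1.04 TPM. The part of other cells in the results was not tested. In bulk RNA, fewer cells that express a gene and less RNA of it per cell cannot be told apart.

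The 8 genes spanned 0.03 to 189 TPM over the libraries, and their order shifted with the stimulation. In repeat peptide DMSO cells *Bhlhe40* (139 ± 57.0 TPM, mean ± SD, n = 4) and *Id2* (87.1 ± 12.5 TPM) led, and their ranges over libraries overlapped. *Tbx21* (40.7 ± 5.27 TPM), *Gata3* (10.5 ± 1.76 TPM) and *Prdm1* (3.15 ± 0.489 TPM) followed, each with a range apart from the gene above it. *Eomes* (2.45 ± 1.40 TPM) overlapped with *Prdm1* and with *Zeb2* (1.89 ± 0.257 TPM), and *Maf* came last at 0.095 ± 0.110 TPM. In single peptide DMSO cells *Id2* led alone (52.1 ± 5.78 TPM, n = 5). *Tbx21* (28.2 ± 9.27 TPM) and *Eomes* (27.6 ± 7.68 TPM) stood at a common level there, and *Bhlhe40* (15.4 ± 5.66 TPM) and *Gata3* (11.01 ± 2.57 TPM) came next with overlapping ranges. The ratio between both T-box genes thus differed between the arms, from similar levels after a single stimulation to a range of 33.6 to 44.8 TPM for *Tbx21* against 1.46 to 4.48 TPM for *Eomes* under repeat peptide with DMSO. Below them in single peptide DMSO cells, *Maf* (1.19 ± 0.863 TPM), *Prdm1* (0.508 ± 0.211 TPM) and *Zeb2* (0.240 ± 0.0689 TPM) formed an overlapping group. With ibrutinib *Id2* (112 ± 25.1 TPM, n = 5) ranked above *Bhlhe40* (44.2 ± 16.3 TPM) in repeat peptide cells, with no overlap. *Eomes* (6.12 ± 5.22 TPM) ranked above *Prdm1* (1.06 ± 0.688 TPM) in the same cells, and these ranges just overlapped, with a lowest *Eomes* of 2.17 and a highest *Prdm1* of 2.18 TPM. In single peptide ibrutinib cells the order was that of single peptide DMSO cells except that *Gata3* (10.8 ± 3.49 TPM) and *Bhlhe40* (8.26 ± 2.12 TPM) were exchanged, with overlapping ranges.

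**Figure D1:**
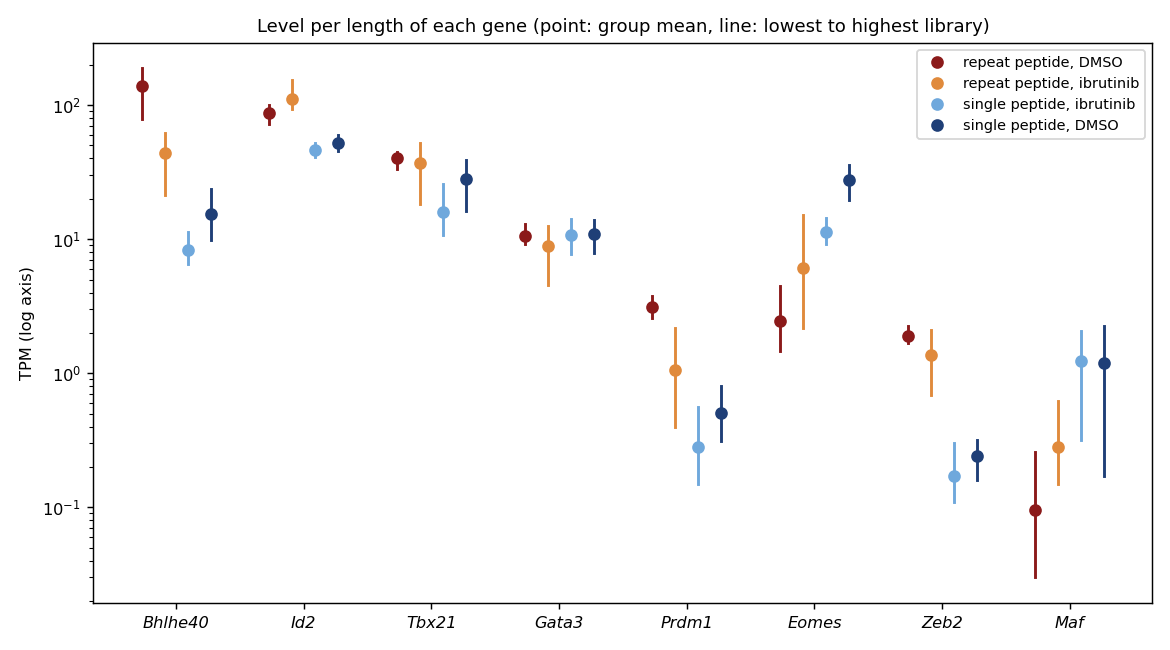
TPM (log axis) of each gene in the 4 groups, ordered by the mean in repeat peptide DMSO cells. Points are group means over 4 or 5 libraries and lines run from the lowest to the highest library. *Bhlhe40* was highest in repeat peptide DMSO cells (139 TPM) and *Eomes* in single peptide DMSO cells (27.6 TPM).

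Repeat against single peptide stimulation with DMSO asks how continued antigen changed these genes. *Bhlhe40*, *Zeb2*, *Prdm1* and *Id2* were higher in repeat peptide cells and *Eomes* and *Maf* lower, so that 6 of the 8 genes were called. To be called, a gene needed an edgeR adjusted p under 0.05, a log2 fold change beyond 0.2 in either direction and a normalized count averaging 50 or more over the libraries. *Zeb2* and *Maf* reached this mean only through the arm where each was higher, here and in the comparisons between the arms below. The background was high, since 47% of all genes tested were called, 22.8% as higher and 24.2% as lower. In normalized counts the ranges of the arms did not overlap for these 6 genes, nor for 41.4% of all genes, while in TPM those of *Maf* overlapped. The absolute log2 fold change had a median of 2.71 over the 8 genes and of 0.48 over all genes tested. *Tbx21* and *Gata3* were not called. With the experiment as a block all 8 were called, as *Tbx21* (log2 fold change 0.52, edgeR adjusted p = 0.000638) and *Gata3* (-0.25, adjusted p = 0.0206) then passed. Here and in the blocked fits below, the differences come from experiments A to D only, as E and F hold 1 library each.

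The same comparison with ibrutinib present called all 8 genes, 5 of them higher and 3 lower, beside 38.4% of all genes (18.7% higher and 19.6% lower). Here *Tbx21* (log2 fold change 1.06, edgeR adjusted p = 0.000559) and *Gata3* (-0.44, adjusted p = 0.0259) were among those called. The calls of *Gata3* and of *Eomes* (-1.07, adjusted p = 0.0469) were the weakest. The ranges of normalized counts did not overlap for 5 genes (all but *Eomes*, *Maf* and *Gata3*) and for 34.3% of all genes, and in TPM *Tbx21* and *Prdm1* overlapped too. Repeat peptide cells with ibrutinib also differed from single peptide cells with DMSO, the group that met neither the drug nor repeated peptide. In that comparison 7 of the 8 genes were called, 4 higher and 3 lower, against 32.9% of all genes (16.7% higher and 16.2% lower), and *Tbx21* (log2 fold change 0.31, edgeR adjusted p = 0.218) was the gene not called. Ranges of normalized counts stood apart for 4 genes (*Eomes*, *Id2*, *Zeb2* and *Bhlhe40*) and for 19.9% of all genes, and in TPM *Bhlhe40* overlapped. With the experiment as a block *Tbx21* was called there too (0.54, adjusted p = 0.000862). These comparisons share libraries with each other and with the DMSO comparison.

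**Figure D2:**
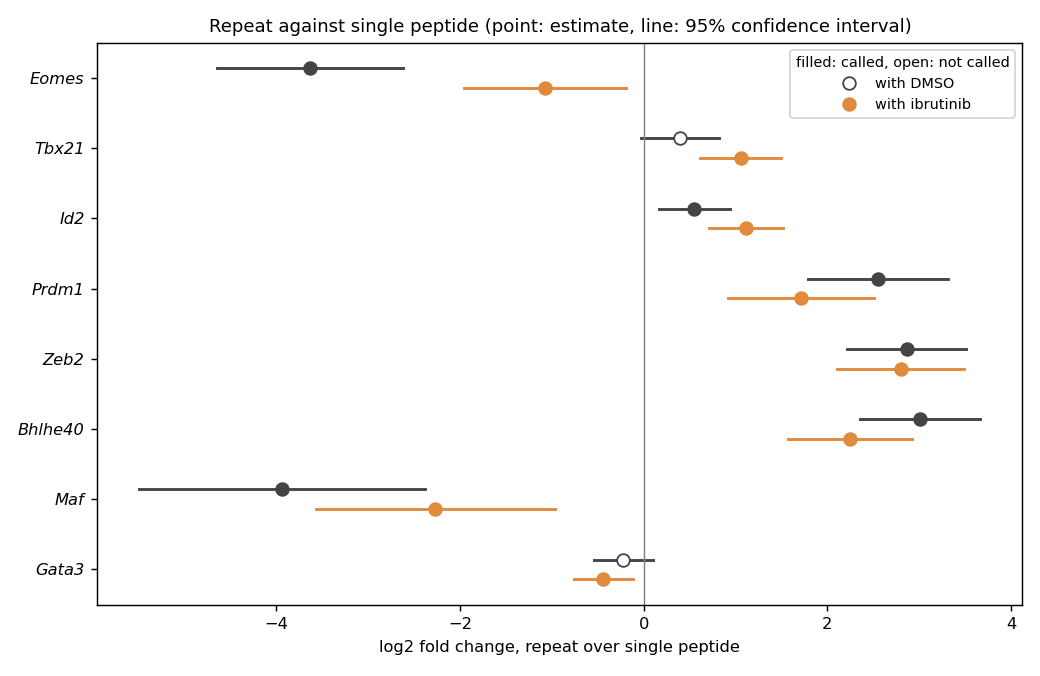
Log2 fold change of repeat over single peptide cells with DMSO (dark) and with ibrutinib (orange). Points are edgeR estimates, lines 95% confidence intervals, and filled points passed the thresholds. *Zeb2*, *Bhlhe40* and *Prdm1* lie right of 0 and *Maf* and *Eomes* left of it in both, with *Eomes* at -3.64 with DMSO and -1.07 with ibrutinib.

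Ibrutinib against DMSO in repeat peptide cells is the study's test of the drug on chronically stimulated cells. *Bhlhe40* fell 2.93-fold and *Prdm1* 2.83-fold, and these 2 genes were the ones called, with ranges apart from DMSO. Of all genes tested 5.92% were called, 4.01% as higher and 1.92% as lower. The absolute log2 fold change had a median of 0.93 over the 8 genes and of 0.20 over all genes. *Eomes*, *Id2* and *Maf* had higher means with ibrutinib and an unadjusted p under 0.05 but did not pass the adjusted threshold. *Tbx21*, *Zeb2* and *Gata3* were not called either, and had an unadjusted p above 0.05. With the experiment as a block *Maf* was called as well (log2 fold change 2.04, edgeR adjusted p = 0.0212), which made 3 of 8.

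In single peptide cells, which no longer met peptide while ibrutinib was present, none of the 8 genes was called by edgeR. At an unadjusted p under 0.05 there were 3 (*Tbx21*, *Eomes* and *Bhlhe40*), each lower with ibrutinib, and DESeq2 called 1 (*Tbx21*). Among all genes 3.04% were called, 0.351% as higher and 2.69% as lower. With the experiment as a block *Tbx21* was called (log2 fold change -0.64, edgeR adjusted p = 0.00136). The median of the absolute log2 fold changes was 0.54 over the 8 genes and 0.15 over all genes.

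**Figure D3:**
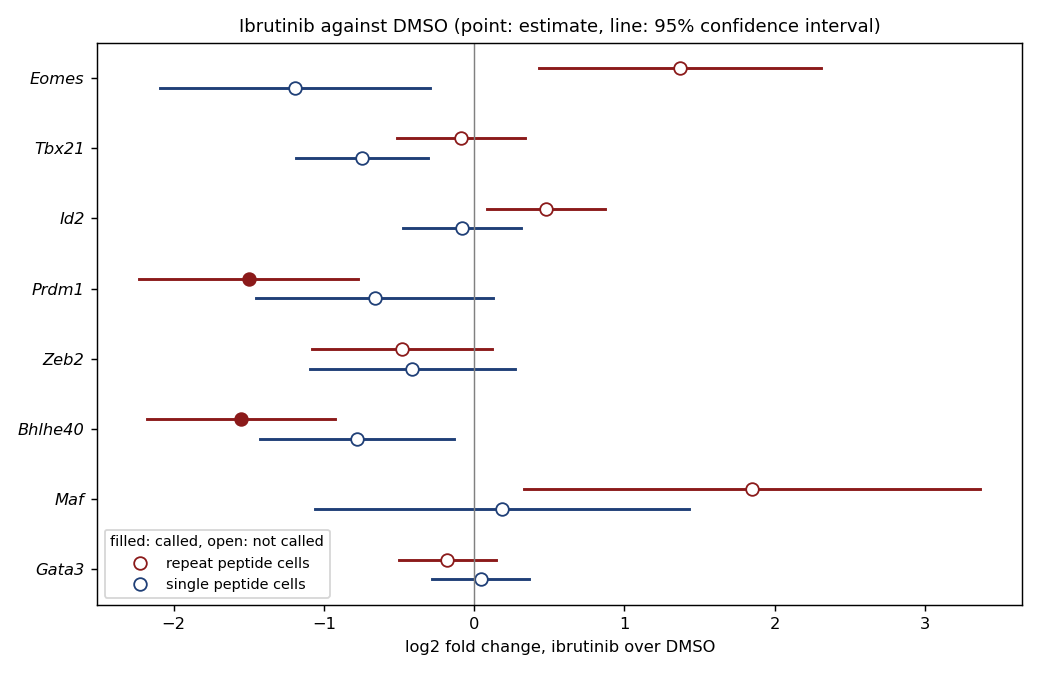
Log2 fold change of ibrutinib over DMSO in repeat (red) and single (blue) peptide cells. Points are edgeR estimates, lines 95% confidence intervals, and filled points passed the thresholds. *Bhlhe40* (-1.55) and *Prdm1* (-1.50) were called in repeat peptide cells, and the *Eomes* estimates lie on opposite sides of 0, at 1.37 and -1.19.

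The difference between both ibrutinib effects was tested as an interaction. *Eomes* was the gene called of the 8, with an ibrutinib effect 2.56 ± 0.62 (SE) log2 units higher in repeat than in single peptide cells (edgeR adjusted p = 0.0468). Of all genes tested 1.26% were called, 1.04% with a positive and 0.212% with a negative difference. The *Eomes* call was close to the threshold. With the experiment as a block it was lost (2.25, adjusted p = 0.0812) and *Tbx21* was called instead (0.66, adjusted p = 0.0200). It was also lost on leaving out any 1 of 13 libraries, that is all but repeat peptide DMSO B, repeat peptide ibrutinib A, C and D and single peptide DMSO B, with estimates of 2.13 to 2.65 and adjusted p from 0.0586 to 0.115 in those fits. The interactions of *Tbx21* without the block (0.66, adjusted p = 0.382), *Id2* (0.56, adjusted p = 0.435) and *Maf* (1.67, adjusted p = 0.541) were positive, and those of *Prdm1* (-0.84, adjusted p = 0.595) and *Bhlhe40* (-0.77, adjusted p = 0.529) negative, none of them called. The lower level of *Bhlhe40* and *Prdm1* with ibrutinib was therefore not shown to differ between repeat and single peptide cells.

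*Eomes*, a T-box factor of memory and exhausted CD8+ T cells (ENSMUSG00000032446, chromosome 9, 118478212 to 118486132), had its highest levels in single peptide DMSO cells. Normalized counts there were 2513 in experiment A, 1556 in B, 1879 in C, 2889 in D and 2848 in F. Single peptide ibrutinib libraries held 1154 (A), 888 (B), 1008 (C) and 1045 (D). Each of these lay under every DMSO library of the arm, and *Eomes* was the 1 member whose ranges stood apart there, as those of 6.39% of all genes did. The fitted log2 fold change was -1.19 ± 0.43 (edgeR adjusted p = 0.179). Repeat peptide DMSO libraries held 97.7 (A), 369 (B), 112 (C) and 173 (D), and repeat peptide ibrutinib libraries 283 (A), 1019 (B), 176 (C), 274 (D) and 690 (E). These groups overlapped, since the B library with DMSO exceeded 3 of the 5 ibrutinib libraries. Within each experiment, though, ibrutinib was the higher one, by 0.64 to 1.51 on the log2 CPM scale in 4 of 4. The fitted log2 fold change was 1.37 ± 0.45 (adjusted p = 0.0744). It passed without the DMSO library of experiment B (1.94, adjusted p = 0.0169), without the ibrutinib library of C (1.59, adjusted p = 0.0268) or of D (1.53, adjusted p = 0.0484), and without all 4 libraries of B (1.49, adjusted p = 0.0370). DESeq2 also called it (1.37, adjusted p = 0.0404), and the fit with the block did not (1.13, adjusted p = 0.149).

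Between the arms *Eomes* was 12.4-fold lower in repeat peptide cells with DMSO (log2 fold change -3.64 ± 0.49, edgeR adjusted p = 6.87e-06), with no overlap. With ibrutinib it was 2.10-fold lower (-1.07 ± 0.42, adjusted p = 0.0469), and the ranges overlapped through the repeat peptide library of experiment B. In that experiment the repeat peptide library was the higher one with ibrutinib, by 0.20 log2 units, whereas it was lower by 1.92 to 2.51 in A, C and D. Leaving out any of 7 libraries ended this call, with adjusted p from 0.0628 to 0.114 (repeat peptide ibrutinib A, C or D, or any single peptide ibrutinib library). It was also lost with RLE size factors, DESeq2, no filter on low counts, all gene types or only the compared groups (adjusted p from 0.05001 to 0.132). Ibrutinib thus went with a higher *Eomes* in repeat and a lower *Eomes* in single peptide cells in each of experiments A to D, which brought both arms nearer to each other.

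*Tbx21* (ENSMUSG00000001444, chromosome 11, 97098071 to 97115331, minus strand) encodes T-bet, the T-box factor that drives interferon gamma and cytotoxic genes. Repeat peptide DMSO libraries held 2101 (A), 2518 (B), 1722 (C) and 2141 (D) normalized counts. Repeat peptide ibrutinib libraries held 2308 (A), 2456 (B), 1640 (C), 2184 (D) and 1393 (E). These groups overlapped almost wholly, with ibrutinib higher in 2 and lower in 2 of experiments A to D. The log2 fold change was -0.09 with a 95% interval from -0.52 to 0.34 (edgeR adjusted p = 0.850). Single peptide libraries held 1674 (A), 1797 (B), 1309 (C), 1150 (D) and 2127 (F) with DMSO and 888 (A), 1365 (B), 831 (C) and 754 (D) with ibrutinib. The spread between experiments was as large as the difference, so the groups overlapped, but ibrutinib was lower in 4 of 4 experiments, by 0.40 to 0.91 log2 units. The fitted fold change was -0.75 ± 0.21 (adjusted p = 0.0599). It passed without the DMSO library of D (-0.85, adjusted p = 0.0421), without the ibrutinib library of B (-0.97, adjusted p = 0.0259), without all of experiment B (-0.92, adjusted p = 0.0455), with DESeq2 (-0.77, adjusted p = 0.00941) and, as given above, with the block. Repeat peptide cells had 1.32-fold more *Tbx21* with DMSO (0.40 ± 0.20, adjusted p = 0.109, called with adjusted p = 0.0465 without the single peptide library of F) and 2.08-fold more with ibrutinib, where the ranges of the arms did not overlap.

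**Figure D4:**
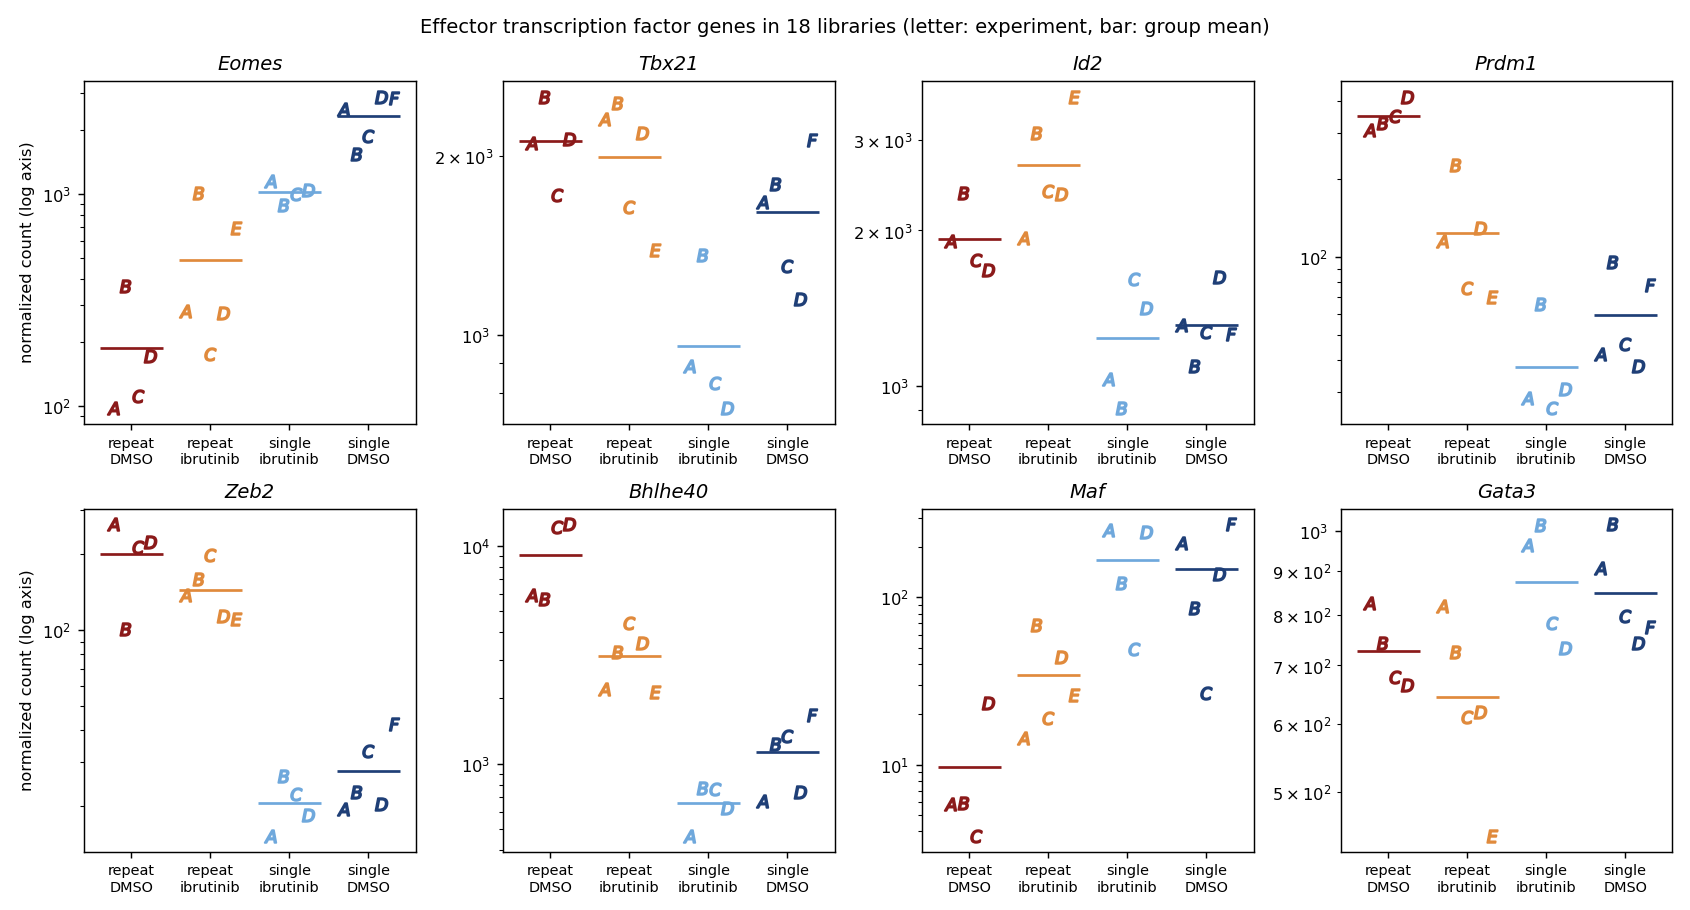
Normalized counts (log axis, scaled for each gene) of the 8 genes in the 18 libraries. Letters give the experiment and bars the group means. *Eomes* ranged from 97.7 to 2889 and was lowest in repeat peptide DMSO cells, *Bhlhe40* ranged from 465 to 12531 and was highest there, and *Gata3* stayed between 445 and 1018.

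*Bhlhe40* (ENSMUSG00000030103, chromosome 6, 108660629 to 108666925), a basic helix-loop-helix repressor induced by T cell activation, gave the smallest p of the 8 under ibrutinib. Repeat peptide DMSO libraries held 5943 (A), 5704 (B), 12231 (C) and 12531 (D) normalized counts, and repeat peptide ibrutinib libraries 2188 (A), 3240 (B), 4423 (C), 3583 (D) and 2120 (E). The DMSO libraries formed a lower and a higher pair, and all 4 exceeded every ibrutinib library. *Bhlhe40* and *Prdm1* were the members without overlap in this comparison, which held for 10.1% of all genes. The difference was 2.93-fold (log2 fold change -1.55 ± 0.30, edgeR adjusted p = 0.00397), with the ibrutinib library lower in 4 of 4 experiments by 0.82 to 1.81 log2 units. It was called under every alternative tried and without any single library. Single peptide cells held *Bhlhe40* at 675 (A), 1228 (B), 1332 (C), 738 (D) and 1676 (F) with DMSO and 465 (A), 775 (B), 767 (C) and 624 (D) with ibrutinib. Ibrutinib was the lower in 4 of 4 experiments there too, by 0.24 to 0.80 log2 units, with overlapping groups (-0.78 ± 0.31, adjusted p = 0.239). Repeat peptide cells had 8.07-fold more with DMSO (3.01 ± 0.31, adjusted p = 3.86e-07) and still 4.73-fold more with ibrutinib (2.24 ± 0.32, adjusted p = 2.28e-05). Repeat peptide cells with ibrutinib remained 2.76-fold above single peptide cells with DMSO (1.46 ± 0.29, adjusted p = 0.000717), with no overlap.

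*Prdm1* (ENSMUSG00000038151, chromosome 10, 44437177 to 44528501, minus strand) encodes Blimp-1, the repressor of memory genes. Its normalized counts were 309 (A), 328 (B), 350 (C) and 416 (D) in repeat peptide DMSO cells, and 115 (A), 228 (B), 76.1 (C), 130 (D) and 70.2 (E) in repeat peptide ibrutinib cells. All DMSO libraries lay above all ibrutinib libraries, and experiment B had the smallest gap. The difference was 2.83-fold (log2 fold change -1.50 ± 0.35, edgeR adjusted p = 0.0130), lower in 4 of 4 experiments by 0.52 to 2.17 log2 units. The call was lost without the DMSO library of experiment D (-1.40, adjusted p = 0.0561), which held the highest count. It held with the block and with the other alternatives. Single peptide libraries held 42.2 (A), 95.2 (B), 45.9 (C), 38.0 (D) and 78.0 (F) with DMSO and 28.4 (A), 65.6 (B), 26.0 (C) and 30.8 (D) with ibrutinib. These groups overlapped (-0.66 ± 0.38, adjusted p = 0.487), although ibrutinib was the lower in 4 of 4 experiments, by 0.28 to 0.78 log2 units. Repeat peptide cells had 5.86-fold more *Prdm1* with DMSO (2.55 ± 0.36, adjusted p = 1.32e-05) and 3.28-fold more with ibrutinib (1.71 ± 0.38, adjusted p = 0.00138). Repeat peptide cells with ibrutinib were 2.07-fold above single peptide cells with DMSO (1.05 ± 0.34, adjusted p = 0.0217), and this call was lost without the repeat peptide library of experiment B (0.72, adjusted p = 0.0779) or the single peptide DMSO library of A (0.95, adjusted p = 0.0547), and also with only the compared groups or with limma on TPM.

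*Zeb2* (ENSMUSG00000026872, chromosome 2, 44983632 to 45117395, minus strand), a repressor of memory genes in terminal effector cells, separated the stimulation arms. Single peptide libraries held 19.4 (A), 22.7 (B), 33.1 (C), 20.4 (D) and 42.2 (F) normalized counts with DMSO and 15.2 (A), 26.2 (B), 22.3 (C) and 18.5 (D) with ibrutinib. Repeat peptide libraries held 263 (A), 101 (B), 213 (C) and 224 (D) with DMSO and 137 (A), 159 (B), 198 (C), 114 (D) and 111 (E) with ibrutinib. Every repeat peptide library was above every single peptide library, and within an arm the drug groups overlapped. The arms differed 7.29-fold with DMSO (log2 fold change 2.87 ± 0.31, edgeR adjusted p = 5.97e-07) and 6.95-fold with ibrutinib (2.80 ± 0.33, adjusted p = 2.50e-06). Mean normalized counts in single peptide cells were 27.6 with DMSO and 20.5 with ibrutinib. *Zeb2* thus met the required mean count of 50 only through the repeat peptide libraries, where it was high. The ibrutinib effect was -0.48 ± 0.29 (adjusted p = 0.346) in repeat and -0.41 ± 0.33 (adjusted p = 0.669) in single peptide cells, and experiment B went the other way in both, with ibrutinib higher by 0.65 and 0.19 log2 units. The effective length that the quantification assigned to *Zeb2* ranged from 2155 to 6406 bases between libraries, and the repeat peptide DMSO library of B had the shortest. In TPM, where this length is divided out, that library (1.75 TPM) lay within the 1.69 to 2.26 TPM of its group. With the length as an offset the ibrutinib effect in repeat peptide cells was -0.38 (adjusted p = 0.478).

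*Id2* (ENSMUSG00000020644, chromosome 12, 25093799 to 25097140, minus strand), the inhibitor of E proteins, was abundant in all groups. Repeat peptide libraries held 1911 (A), 2365 (B), 1751 (C) and 1676 (D) normalized counts with DMSO and 1935 (A), 3092 (B), 2383 (C), 2357 (D) and 3632 (E) with ibrutinib. Single peptide libraries held 1312 (A), 1093 (B), 1272 (C), 1627 (D) and 1260 (F) with DMSO and 1030 (A), 905 (B), 1608 (C) and 1416 (D) with ibrutinib. All repeat peptide libraries were above all single peptide libraries, while drug groups overlapped in each arm. The arms differed 1.47-fold with DMSO (log2 fold change 0.55 ± 0.19, edgeR adjusted p = 0.0179) and 2.16-fold with ibrutinib (1.11 ± 0.19, adjusted p = 0.000146). The first of these calls was lost without the repeat peptide DMSO library of experiment B (0.44, adjusted p = 0.0672) and without all of B (0.38, adjusted p = 0.124). In repeat peptide cells ibrutinib was higher in 4 of 4 experiments, by 0.02 to 0.49 log2 units (0.48 ± 0.19, adjusted p = 0.141). In single peptide cells the effect was -0.08 with an interval from -0.48 to 0.31 (adjusted p = 0.921).

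*Maf* (ENSMUSG00000055435, chromosome 8, 115682942 to 115707794, minus strand), which encodes c-Maf, was the scarcest of the 8 in repeat peptide cells. Repeat peptide DMSO libraries held 5.82 (A), 5.92 (B), 3.74 (C) and 23.5 (D) normalized counts, from 5, 6, 5 and 22 expected counts. Repeat peptide ibrutinib libraries held 14.6 (A), 68.3 (B), 19.0 (C), 44.0 (D) and 26.2 (E). Ibrutinib was higher in 4 of 4 experiments, by 0.85 to 3.15 log2 units, but the D library with DMSO exceeded 2 ibrutinib libraries and the groups overlapped. The log2 fold change was 1.85 ± 0.72 (edgeR adjusted p = 0.137, and 0.0459 with DESeq2). Single peptide libraries held 212 (A), 86.5 (B), 26.8 (C), 139 (D) and 274 (F) with DMSO and 254 (A), 122 (B), 49.2 (C) and 246 (D) with ibrutinib. In both of these groups experiment C was lowest, and the drug groups overlapped (0.18, interval from -1.06 to 1.43, adjusted p = 0.947). *Maf* was 15.3-fold lower in repeat peptide cells with DMSO (-3.94 ± 0.74, adjusted p = 0.000230) and 4.82-fold lower with ibrutinib (-2.27 ± 0.62, adjusted p = 0.00660). With ibrutinib the ranges of the arms overlapped, through the single peptide library of C. Mean normalized counts in repeat peptide cells were 9.74 with DMSO and 34.4 with ibrutinib. The calls between the arms thus met the required mean count of 50 only through the single peptide libraries.

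*Gata3* (ENSMUSG00000015619, chromosome 2, 9857078 to 9890034, minus strand), the zinc finger factor of helper T cell fate, differed least between the group means. Repeat peptide libraries held 826 (A), 743 (B), 678 (C) and 664 (D) normalized counts with DMSO and 819 (A), 726 (B), 611 (C), 619 (D) and 445 (E) with ibrutinib. Single peptide libraries held 907 (A), 1018 (B), 799 (C), 742 (D) and 775 (F) with DMSO and 963 (A), 1017 (B), 785 (C) and 733 (D) with ibrutinib. The groups overlapped throughout, and in each of them A and B lay above C and D. The ibrutinib effect was -0.18 (interval -0.50 to 0.15, edgeR adjusted p = 0.539) in repeat and 0.04 (interval -0.28 to 0.37, adjusted p = 0.952) in single peptide cells. Repeat peptide libraries were the lower in 4 of 4 experiments in both treatments, by 0.14 to 0.45 log2 units with DMSO (-0.22 ± 0.15, adjusted p = 0.236) and by 0.23 to 0.49 with ibrutinib (-0.44 ± 0.15, adjusted p = 0.0259). The second of these was called, and the call was lost without repeat peptide ibrutinib C, D or E, without single peptide ibrutinib A or B, and without all of experiment B, with adjusted p from 0.0542 to 0.104. Repeat peptide ibrutinib against single peptide DMSO cells gave -0.40 ± 0.15 (adjusted p = 0.0377), a call lost without repeat peptide ibrutinib C, D or E or single peptide DMSO A or B, with adjusted p from 0.0771 to 0.127, and without all of B (0.0980). Both *Gata3* calls were also lost with only the compared groups and with limma on TPM, and the second of them without the filter on low counts. They held with the experiment as a block (edgeR adjusted p = 0.00397 and 0.00628) and with DESeq2 (adjusted p = 0.0231 and 0.0254).

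Experiment B held the highest count of the repeat peptide libraries for several of these genes. Among the repeat peptide libraries with DMSO it had the most *Eomes* (369), *Tbx21* (2518) and *Id2* (2365), but the least *Zeb2* (101) and *Bhlhe40* (5704). With ibrutinib it had the most *Eomes* (1019), *Tbx21* (2456), *Prdm1* (228) and *Maf* (68.3). None of these counts met the outlier criterion given below. For *Tbx21* the next highest counts were close, 2141 (D) with DMSO and 2308 (A) with ibrutinib. The NK cell marker *Klrb1c* was also highest in its repeat peptide libraries, at 11.3 TPM with DMSO and 25.2 TPM with ibrutinib, against medians of 5.08 and 4.81 TPM in these groups. The part of other cells in this was not tested. Without all 4 libraries of B, *Bhlhe40* (log2 fold change -1.73, edgeR adjusted p = 0.0121) and *Prdm1* (-1.86, adjusted p = 0.00223) were still called in repeat peptide cells with ibrutinib, joined by *Eomes*. The interaction of *Eomes* was called as well (2.73, adjusted p = 0.0197).

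**Figure D5:**
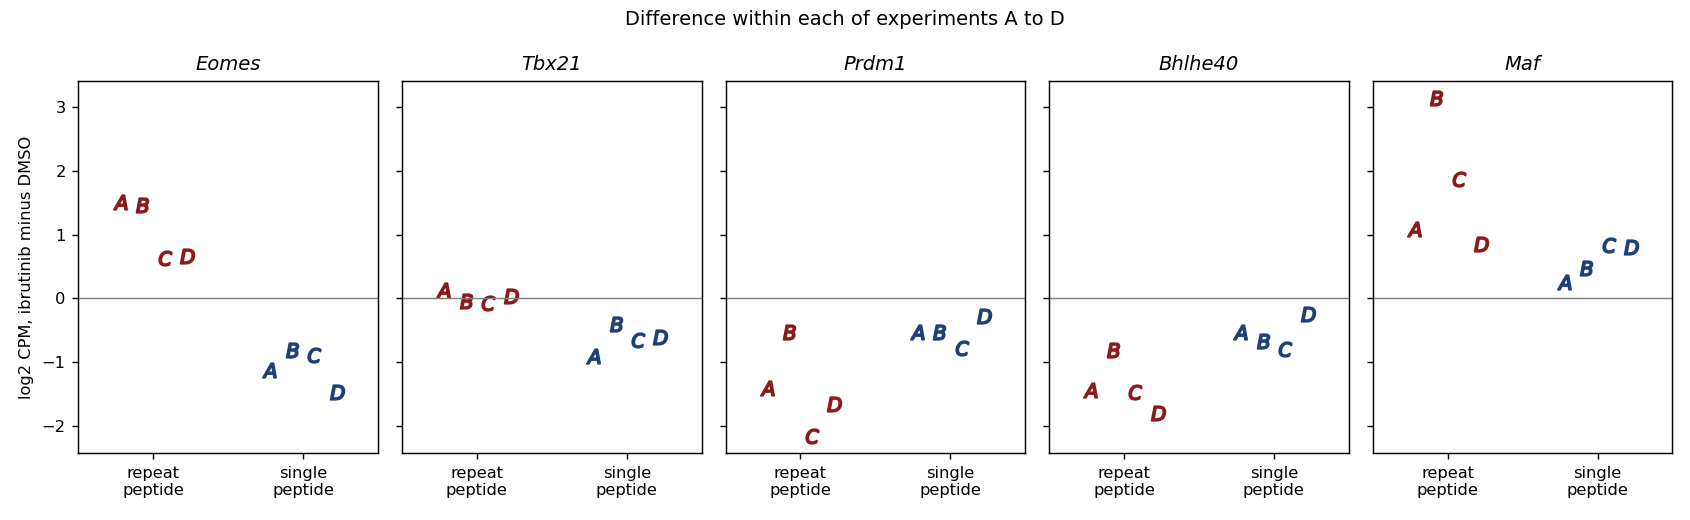
Difference in log2 CPM between the ibrutinib and the DMSO library of the same experiment, for 5 of the genes, in repeat (red) and single (blue) peptide cells. Letters give experiments A to D. *Eomes* lies above 0 in all 4 repeat peptide pairs (0.64 to 1.51) and below 0 in all 4 single peptide pairs (-0.81 to -1.47).

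Genes known to depend on the T-box factors were listed by name (14 genes, of which 12 were tested). In repeat peptide cells with ibrutinib 1 of them rose, the chemokine receptor *Cxcr3* (log2 fold change 1.36), and 4 fell, of which interferon gamma (*Ifng*, -1.78) fell most and the IL-2 receptor chain *Il2rb* (-0.65) least, beside 4.01% of all genes called higher and 1.92% lower. In single peptide cells 5 fell and none rose, beside 2.69% of all genes called lower, and *Il12rb2* (-0.86), a chain of the IL-12 receptor, fell least. Of the 5, *Ifng* and the chemokines *Ccl3* and *Ccl4* were scarce in this arm and reached the mean count of 50 only through the repeat peptide libraries. The mean normalized count of *Ccl3*, with the largest fitted change, was 66.6 with DMSO and 1.45 with ibrutinib, that of *Ccl4* 58.8 and 7.09, and that of *Ifng* 46.1 and 7.99. With DMSO 8 of the 12 rose under repeat peptide, *Ifng* most (4.04), and *Cxcr3* (-1.89) and *Ccl5* (-1.18) fell, in cells where *Eomes* was 12.4-fold lower and where 22.8% of all genes were called higher and 24.2% lower. The median log2 fold change of the list was -0.47, -0.53 and 1.65 in these comparisons, beside 0.00, 0.01 and 0.00 over all genes tested. Whether the T-box factors had a part in these changes was not tested.

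Of 10 genes that Blimp-1 is known to restrain, 8 were tested. With ibrutinib in repeat peptide cells, where *Prdm1* was 2.83-fold lower, 3 of them rose and none fell, beside 4.01% of all genes called higher. *Tcf7*, which encodes TCF-1, rose most (log2 fold change 0.93) and the IL-7 receptor gene *Il7r* least (0.63). In single peptide cells *Il7r* rose (0.70) and no other was called, with 3.04% of all genes called, 0.351% as higher. Under repeat peptide with DMSO 4 fell and none rose, from *Tcf7* (-2.16) to *Myc* (-0.57), beside 24.2% of all genes called lower. Taken in either direction, this share of 4 in 8 was near the 47% of all genes called. The list's median was 0.48, 0.13 and -0.71. Whether the level of *Prdm1* had a part in these changes was not tested.

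Few of the 9 cytokine and receptor genes linked to GATA3, c-Maf and Bhlhe40 were expressed, and 3 could be tested (*Il1rl1*, *Ccr4* and *Csf2*). *Csf2* encodes GM-CSF and is a known target of Bhlhe40. It was higher in repeat than in single peptide cells with DMSO (log2 fold change 3.72), as was *Ccr4* (3.23). In this comparison 47% of all genes were called, 22.8% as higher. Both genes were scarce in single peptide cells and reached the required mean count only through the repeat peptide libraries. With DMSO the mean normalized count of *Csf2* was 166 (SD 129) in repeat and 12.4 (SD 12.3) in single peptide cells. That of *Ccr4* was 175 (SD 93) and 18.3 (SD 11.1). With ibrutinib *Csf2* was at -1.96 in repeat (edgeR adjusted p = 0.0935) and had mean normalized counts of 12.4 with DMSO and 1.90 with ibrutinib in single peptide cells (adjusted p = 0.206), and none of the 3 was called in either. The median over the 3 was -1.57 in repeat peptide cells and 3.23 between the arms with DMSO.

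The last list held 18 partner and opposing factors, such as the E proteins that Id2 binds, the Zeb2 relative *Zeb1* and the memory factors opposed by Blimp-1, with 15 tested. In repeat peptide cells 4 of them rose with ibrutinib, from *Klf2* (log2 fold change 1.42), a factor of quiescence and trafficking, to *Foxo1* (0.47), and none fell, beside 4.01% of all genes called higher. None was called in single peptide cells. With DMSO the repeat peptide arm had 2 higher, led by the E protein gene *Tcf4* (2.15), and 8 lower, led by *Klf2* (-2.98), beside 22.8% and 24.2% of all genes. The medians were 0.16, 0.05 and -0.30. *Tcf7*, *Id3* and *Bcl6* are in this list and in the list of Blimp-1, so these counts are not independent of each other.

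The genes whose pattern over the 18 libraries was most like that of each factor were found by Pearson's r of log2 CPM, over tested genes with a mean normalized count of at least 50. They were *Rabep2* (0.947) and *Pstpip1* (0.946) for *Eomes*, and *Dennd4a* (0.932) and *Tspoap1* (0.919) for *Tbx21*. For *Bhlhe40* they were *Tdg* (0.981) and *Mfhas1* (0.979), and for *Prdm1* they were *Otud7b* (0.949) and *Eea1* (0.948). *Zeb2* was closest to *Ccdc50* (0.980) and *Hip1* (0.973), and *Id2* to *AI662270* (0.923) and *Klrd1* (0.913), an NK receptor chain also found on CD8+ T cells. For *Maf* they were *5830411N06Rik* (0.914) and *Traf1* (0.906), and for *Gata3* they were *Sin3a* (0.956) and *Jarid2* (0.932). These values describe the 18 points, which share the differences between the arms and the experiments, and no member was among the nearest genes of another.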

How the data were processed

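The authors trimmed the reads with Trim Galore, mapped and quantified them with STAR and RSEM 1.3.1 on GRCm38 and deposited a table of genes per library. Expected counts were deposited as RSEM's estimate of the reads of each gene. TPM, also deposited by the authors, corrects for gene length and sets a common total, and served for levels between genes and in alternatives. The deposited effective length, in bases, is the authors' estimate per gene and library. Whether counting used the strand is not given in the sources used here, but no gene overlapping a member had more than 4 expected counts in a library.

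Expected counts were rounded, although no value of a member was fractional. GENCODE M21 gave names, coordinates and the 27903 protein-coding and lncRNA genes (98.5% of counts), with 45143 of 45706 identifiers matched. In R 4.3.3, genes passing filterByExpr of edgeR 4.0.16 (12255) were normalized by TMM and fitted by glmQLFit (robust) over all 18 libraries, with group as the only term, and compared by glmQLFTest. P-values were adjusted by Benjamini-Hochberg over all genes tested. Normalized counts are counts per effective library size, scaled to its mean. The SE is the absolute log2 fold change divided by the square root of F. Within-experiment differences used log2 CPM with a prior count of 2. The members, lists, tests and alternatives were chosen with earlier results of these data known. All members are named, and of each list the called genes with the largest and smallest fold change, besides a few named after their values were seen (*Cxcr3*, *Ccl4*, *Ccl5*, *Ccr4*, *Il7r*). Other listed genes enter only the counts and medians.

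Libraries of the same experiment (the genotype entry of the labels) deviated together from the group means, with r from 0.16 to 0.494 in 24 pairs (median 0.325) against a median of -0.076 in 97 other pairs. The experiment was therefore taken to pair the libraries and a fit blocked by experiment is given where a call changes. Libraries of a group differed by more than sampling noise (chi-square 27.0 to 214 per degree of freedom). Total expected counts were 23445922 to 51995372, so counting error is small except for *Maf*, *Zeb2* and, in single peptide cells, *Prdm1* (lowest count 28). Intervals come from the spread between libraries. The scripts were tested on simulated counts. Alternatives were RLE size factors, no filter on low counts, the block, DESeq2 1.42.0, only the compared groups, all gene types, an offset for effective length, limma 3.58.1 on log2(TPM + 1) and log2(TPM + 0.1), each library left out in turn and, added after seeing the data, experiment B left out. Promoter windows are from RefSeq (GRCm38.p6). The flow cytometry and protein measurements of the study are not analysed here.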

Additional observations from a re-analysis of the deposited data

Results flagged for a closer look

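Among the 32 groups of 4 or 5 libraries formed by the 8 genes, 2 held a library that stood apart from the others by Dixon's criterion, and chance alone flags about 1 in 20 groups. *Prdm1* had a normalized count of 65.6 in the single peptide ibrutinib library of experiment B, against 26.0 to 30.8 in the other 3. *Maf* had 23.5 in the repeat peptide DMSO library of experiment D, against 3.74 to 5.92 in the other 3.

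The ibrutinib effect on *Eomes* differed between repeat and single peptide cells by 2.56 on the log2 scale (edgeR interaction, adjusted p = 0.0468). The call was lost with the experiment as a block (2.25, adjusted p = 0.0812) and without any 1 of 13 of the 18 libraries. The ibrutinib effect was positive in repeat and negative in single peptide cells in 4 of 4 experiments.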

How the results depend on the processing

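Of the 472 values of single members under alternatives other than leaving out 1 library, 432 kept their direction and their side of the threshold, 23 lost and 13 gained a call, and 4 changed sign. With 1 library left out, 454 of 512 kept both, 34 lost and 6 gained a call, and 18 changed sign. Every change of sign was in a difference that was not called. *Tbx21* in repeat peptide cells was at 0.018 with the replicate block and at -0.175 to 0.019 with 1 library left out. In single peptide cells *Gata3* was at -0.043 with limma on log2(TPM + 1) and -0.049 on log2(TPM + 0.1), and with 1 library left out *Gata3* ranged from -0.037 to 0.11, *Id2* from -0.245 to 0.041 and *Maf* from -0.107 to 0.527. The *Zeb2* interaction was at 0.08 with the length offset and at -0.27 to 0.09 with 1 library left out.

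The number of members called in repeat peptide cells under ibrutinib was 2, 4 with DESeq2, 3 with the block, and 1 to 3 with 1 library left out. For single peptide cells the number was 0, and 1 with RLE size factors, the block, DESeq2, only the compared groups, or without experiment B, and 0 to 1 with 1 library left out. The gene called was *Tbx21* except with only the compared groups, where it was *Eomes* (-1.19, edgeR adjusted p = 0.0177). For the interaction it was 1, and 0 without the filter on low counts, with all gene types, with limma on log2(TPM + 1) or on log2(TPM + 0.1), and 0 to 1 with 1 library left out. The cause was not tested. By normalized count per kilobase in place of TPM, 2 members changed places in single peptide DMSO cells.

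Over all genes, 726 were called in repeat peptide cells under ibrutinib against 1694 with the block, 1165 with DESeq2, 464 with only the compared groups, 395 and 279 with limma, 459 without experiment B and 354 at the lowest with 1 library left out. The 373 of single peptide cells became 1114, 612, 181, 155 and 239, 163, and 131, and for the interaction 154 became 679 with the block, 350 with DESeq2, 75 and 58 with limma, 88 without experiment B and 84 with 1 library left out. Repeat against single peptide with ibrutinib fell from 4703 to 2996 and 3002 with limma, and repeat peptide ibrutinib against single peptide DMSO from 4028 to 2504 and 2496. The low counts of *Maf*, from 5 in a library, limit its precision. Its calls, those between the arms and those in repeat peptide cells under ibrutinib, met the required mean count only through the single peptide libraries.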
